A study of Mus musculus with 4 samples.

Results

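Solute carriers are the membrane proteins, named Slc with a family number and a member letter, that move amino acids, sugars, ions, metals, nucleotides and vitamins across the cell surface and the membranes of organelles. The genes described here are the 197 expressed solute carriers of sorted splenic B cells. They are the protein-coding genes of the count tables whose symbol begins with Slc and a digit and which were selected on their mean over 4 libraries of at least 1 CPM, the raw count scaled to a library total of 1000000. Of 37646 genes listed, 362 had such a symbol. Of these, 161 lay below 1 CPM, and 4 sugar and lactate carriers (Slc2a1, Slc2a3, Slc16a1 and Slc16a3) were left out by name. The mean CPM thus chose the members, and every level below is a description with no test. Just inside the limit stood Slc44a4 at 1.02, Slc1a3 at 1.05 and Slc6a19 at 1.07 CPM. Just outside stood Slc18a1 at 0.992, Slc6a9 at 0.962 and Slc34a1 at 0.934 CPM.

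The 4 libraries formed 1 group, so no treatment or genotype could be compared. All came from C57BL/6 mice of the genotype YFPstopF/+ Cg1Cre/+, in which a Cre recombinase expressed from the Ighg1 (Cg1) locus removes a stop cassette and switches on a YFP reporter. The mice had received sheep red blood cells by a first injection and by a second 20 days later, and the spleens were collected after a further 10 days. Living B220+ YFP+ cells were sorted, and they are labelled as splenic germinal centre B cells of normal controls. The reporter stays on in the descendants of cells that once expressed Cre, so memory and plasma cells may be included. The labels give neither the age of the mice nor whether each library came from 1 animal or from a pool. The lymphoma models that the study compares with these cells were not analysed here. The p-values below measure only the spread between these 4 libraries, which may be technical in part.

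All 8 germinal centre markers and all 7 B cell markers checked exceeded 1 TPM (transcript abundance, from counts corrected for gene length and library size) in every library. So did all 9 T cell, all 10 macrophage and monocyte and all 6 plasma cell markers. The plasma cell markers summed to 1932, 1788, 954 and 1825 TPM in libraries 1 to 4 and the germinal centre markers to 1327, 901, 1504 and 1124 TPM. The plasma cell sum was thus the larger in libraries 1, 2 and 4. Most of it was Jchain, with a mean of 1251 TPM, followed by Xbp1 (201 TPM) and Irf4 (143 TPM). Sdc1, Prdm1 and Tnfrsf17 were at 13.5, 10.3 and 5.08 TPM. Sums over different genes do not give the shares of cell types. The T cell markers summed to 195 to 492 TPM and the 8 erythroid markers to 98.5 to 271 TPM. Library totals ran from 13777954 to 14629025 counts, of which the members took 0.732 to 0.897%. Member counts ran from 2 to 12444 reads in a library. Y-linked Ddx3y had 1307 counts in library 3, against 0 to 3 elsewhere, and Xist had 6 counts in library 3, against 8689 to 12160 elsewhere. Sex therefore cannot be told apart from any other difference of library 3.

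Germinal centre B cells divide fast and remake their proteins, nucleotides and membranes in each cycle. Amino acid uptake through the exchanger of Slc7a5 and Slc3a2 is known to feed the mTORC1 pathway in lymphocytes, and glutamine enters through carriers such as Slc1a5 and Slc38a2. Mitochondrial carriers of the Slc25 family link the matrix with the cytosol, and Slc35 carriers bring nucleotide sugars into the Golgi for glycosylation of antibodies and receptors.

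The members covered a wide range of levels, and amino acid and mitochondrial carriers held the top. The median member stood at 7.24 TPM, against 13.8 TPM for the median of 11071 expressed protein-coding genes, and 63 of 197 members lay above that second value, as do 50% of those genes. Levels ran from 0.192 TPM (Slc8a1, a sodium and calcium exchanger) to 278 TPM (Slc1a5). The middle of the distribution was narrow, with quartiles at 3.21 and 19.5 TPM. Members above 100 TPM numbered 8, those above 10 TPM 79, and those below 1 TPM 20. The 10 highest carried 39.7% of the summed TPM of all members.

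**Figure D1:**
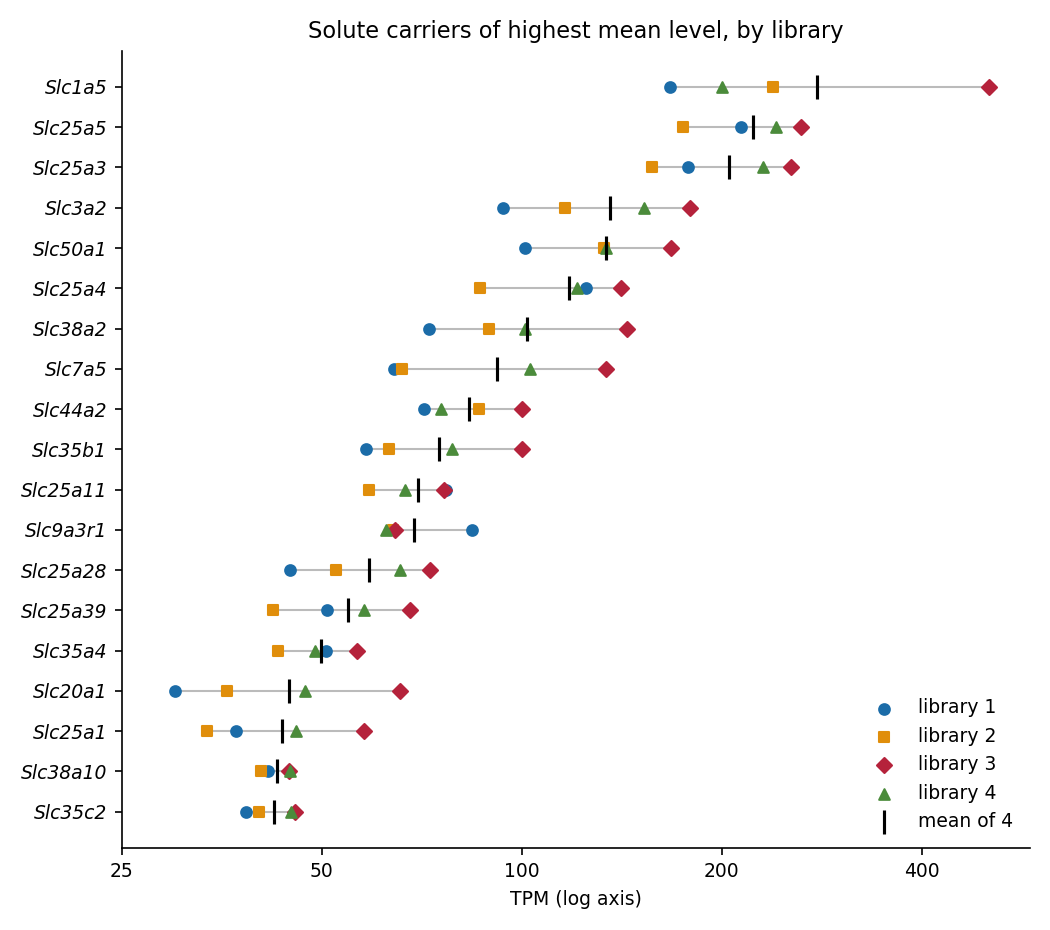
TPM of 19 of the 20 solute carriers of highest mean level (x axis, logarithmic) in each of 4 libraries, with a vertical tick at the mean and a line from the lowest to the highest library. Slc1a5 leads with 278 TPM and the widest spread, from 167 to 505 TPM, while Slc38a10 and Slc35c2 differ little between libraries.

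Among the leading members by mean level were Slc1a5, Slc25a5, Slc25a3, Slc3a2, Slc50a1, Slc25a4, Slc38a2, Slc7a5 and Slc44a2. Among the 20 highest, 18 of 19 neighbouring pairs differed by less than the larger of their SDs, so the exact order is not fixed. The order also depended on gene length. Without the correction for length, 12 of these 20 remained among the 20 highest by CPM. TPM used the union of all annotated exons, which lowers genes with long, rarely used exons.

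Amino acid transporters of the cell surface were the transporter role with the highest median. Of 34 listed, 18 were members, with a median of 18.5 TPM, and 10 of the 18 lay above the median of expressed protein-coding genes. They made up 20.8% of the members' summed TPM.

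Slc1a5, the exchanger of glutamine and other neutral amino acids (chromosome 7, 16781340 to 16798274, mm10), stood at 167, 239, 505 and 200 TPM in libraries 1 to 4. Library 3 was far above the others, and the mean was 278 ± 154 TPM (SD, n = 4; the same form holds for every level below), while the other 3 libraries lay between 167 and 239 TPM. Slc38a2, a sodium-coupled glutamine and alanine carrier, stood at 72.5, 89.3, 144 and 101 TPM, with library 3 again the highest. Its relative Slc38a1 was lower in every library, at 24.5, 20.8, 35.1 and 28.5 TPM. The TPM ratio of Slc38a2 to Slc38a1 was 3.72 ± 0.598 and above 1 in 4 of 4 libraries.

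Slc3a2 encodes the heavy chain that carries several light chains to the cell surface. It stood at 93.6, 116, 179 and 153 TPM, with library 3 highest and library 1 lowest. Slc7a5, the light chain for large neutral amino acids, stood at 64.3, 66.1, 134 and 103 TPM, again highest in library 3. The light chain genes Slc7a6 (34.5 ± 7.75 TPM) and Slc7a7 (14.2 ± 1.66 TPM) exchange cationic amino acids for neutral ones. Slc7a8, another light chain gene, was at 0.598 ± 0.255 TPM. Slc7a11, the cystine light chain gene, was no member, with 2, 3, 8 and 11 counts.

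The heavy chain was close to the sum of its light chains. Slc7a5, Slc7a6, Slc7a7, Slc7a8 and Slc7a11 together gave 106, 112, 193 and 153 TPM. Slc3a2 divided by this sum was 0.88, 1.03, 0.928 and 1, a mean of 0.961 ± 0.07. This compares transcripts of 6 genes within a library, not proteins.

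Slc7a1, the main carrier of arginine and lysine, stood at 28.7 ± 4.29 TPM, and Slc6a6, which takes up taurine, at 22.7 ± 4.45 TPM. Slc38a10 was steady, at 41.5, 40.5, 44.7 and 44.8 TPM. Slc43a1 and Slc43a2, carriers of large neutral amino acids without a heavy chain, stood at 10.2 ± 1.52 and 7.86 ± 0.894 TPM. The lowest members of the group were the glutamate carrier gene Slc1a3 (0.271 ± 0.173 TPM) and Slc6a19 (0.48 ± 0.24 TPM), an amino acid carrier of gut and kidney.

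Mitochondrial carriers were the largest group, and they held 33% of the summed TPM. Of 47 Slc25 genes listed, 38 were members. Their median was 11 TPM, and 17 of the 38 lay above the median of expressed protein-coding genes.

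The ADP/ATP translocases exchange matrix ATP for cytosolic ADP. Slc25a5 stood at 214, 175, 263 and 241 TPM and Slc25a4 at 125, 86.4, 141 and 121 TPM. Slc25a5 exceeded Slc25a4 in 4 of 4 libraries, by a TPM ratio of 1.9 ± 0.14. The 2 genes are known to be alike in sequence and the tables list a processed pseudogene of Slc25a5, so that reads could be shared, and the treatment of such reads was not given. Slc25a3, the phosphate carrier needed for ATP synthesis, stood at 178, 157, 254 and 231 TPM. All 3 carriers were lowest in library 2.

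Slc25a11, the oxoglutarate carrier, stood at 69.7 ± 8.61 TPM, Slc25a1, the citrate carrier that supplies fatty acid synthesis, at 43.6 ± 10.8 TPM, and Slc25a10, the dicarboxylate carrier, at 27.3 ± 2.97 TPM. Slc25a39, which imports glutathione, stood at 54.8 ± 10.8 TPM.

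Both iron carriers of mitochondria were expressed. Slc25a28, mitoferrin 2, stood at 58.9 ± 12.6 TPM and Slc25a37, mitoferrin 1 and best known from red cell precursors, at 29.8 ± 4.58 TPM. Their TPM ratio was 1.97 ± 0.236 and above 1 in 4 of 4 libraries. Slc25a38, a glycine carrier needed for haem synthesis, stood at 25.4 ± 2.48 TPM. Carriers of folate and carnitine were lower, with Slc25a32 at 8.47 ± 1.87 TPM and Slc25a20 at 9.6 ± 1.93 TPM. Slc25a35 was the lowest of the group at 1.06 ± 0.315 TPM, and 31.3% of its exon length is shared with Rangrf.

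**Figure D2:**
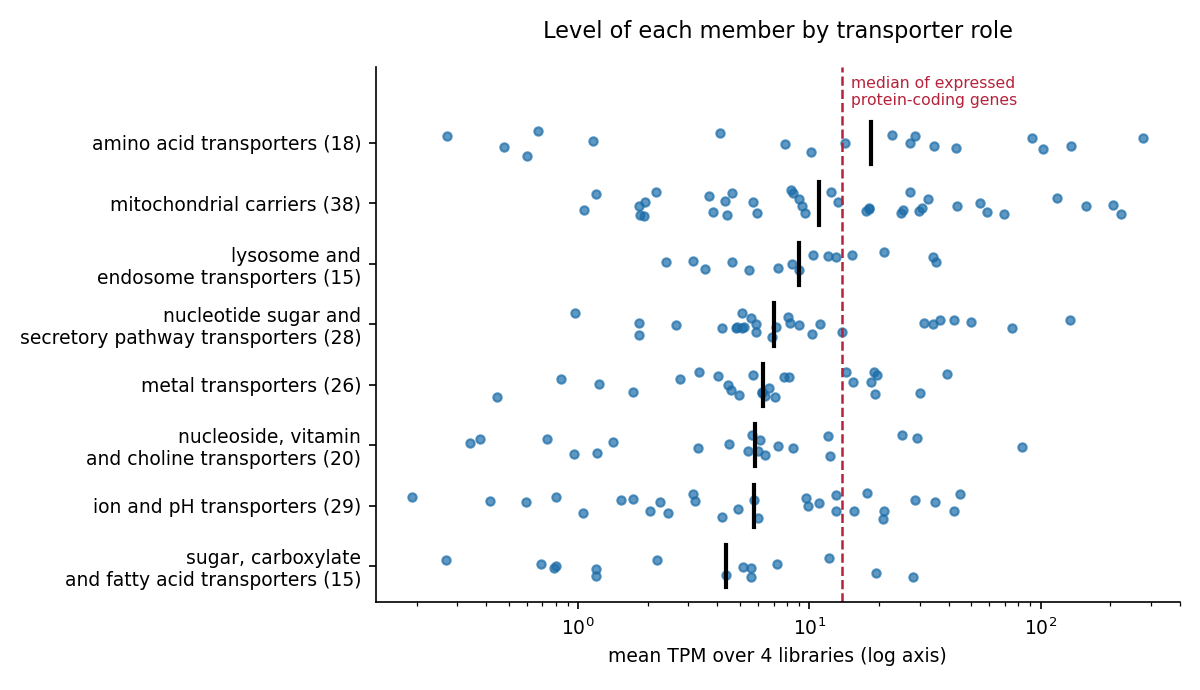
Mean TPM over 4 libraries (x axis, logarithmic) of each member, 1 point per gene, by transporter role, with the number of members in parentheses, a black bar at the median of each role and a dashed line at 13.8 TPM, the median of expressed protein-coding genes. Amino acid transporters (median 18.5 TPM) lie right of the line by median and the other 7 roles left of it.

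Transporters of the secretory pathway were broadly expressed at moderate levels. Of 34 listed, 28 were members, with a median of 7.04 TPM. Slc50a1, a sugar transporter, led at 101, 133, 168 and 134 TPM. Slc35b1, which brings ATP into the endoplasmic reticulum for its chaperones, stood at 58.4, 63.2, 100 and 78.5 TPM. Both were lowest in library 1. Slc35a4 stood at 49.8 ± 5.61 TPM and Slc35c2 at 42.4 ± 3.5 TPM. Slc35a1 carries CMP-sialic acid, the donor for sialic acid on surface glycans, and stood at 10.3 ± 2.94 TPM. Slc35a2, the UDP-galactose carrier on the X chromosome, stood at 8.25 ± 0.707 TPM. Slc33a1, the acetyl-CoA carrier, stood at 6.89 ± 0.727 TPM, with 32% of its exon length shared with Gm26850. Slc35e4 was the lowest at 0.966 ± 0.327 TPM.

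Lysosomal and endosomal transporters had a median of 9.06 TPM, and 15 of 17 listed were members. Slc15a4, a peptide and histidine transporter that endosomal Toll-like receptor signalling in B cells needs, stood at 39, 32.8, 38.8 and 30.5 TPM. Slc48a1, which exports haem from endosomes and lysosomes, stood at 44, 27.9, 32.4 and 32.2 TPM, with library 1 highest. Slc17a9, a vesicular nucleotide transporter, followed at 21 ± 2.88 TPM. Slc38a9, the lysosomal arginine sensor of mTORC1, stood at 9.06 ± 1.73 TPM and the lysosomal amino acid exporter Slc36a1 at 5.51 ± 0.668 TPM. The nucleoside exporter Slc29a3 stood at 10, 10.6, 10.7 and 10.4 TPM. Slc15a3 stood at 13.1 ± 4.01 TPM, with 28.1% of its exon length shared with Tmem132a. Slc11a1, a metal pump of phagocyte lysosomes, stood at 1.68, 2.89, 3.8 and 4.17 TPM. The 10 macrophage and monocyte markers, each above 1 TPM in every library, summed to 361, 240, 273 and 304 TPM, an order unlike that of Slc11a1. The 6 neutrophil markers, 3 of them above 1 TPM in every library, summed to 145, 101, 99.7 and 226 TPM. This sum was highest in library 4, as was Slc11a1, but lowest in library 3, while Slc11a1 was lowest in library 1. The part of either cell type in the level of Slc11a1 was not tested.

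Metal transporters had a median of 6.33 TPM, and 26 of 30 listed were members. Slc30a5, which moves zinc into the early secretory pathway, led at 37.9, 28.1, 52.7 and 38.6 TPM, followed by the magnesium exporter Slc41a1 at 30.1 ± 3.2 TPM. The zinc importers Slc39a6 and Slc39a10 stood at 19.6 ± 2.68 and 6.21 ± 0.841 TPM, and Slc39a10 is known to sustain B cells in mice. Slc39a7, which releases zinc from the endoplasmic reticulum, stood at 6.71 ± 1.56 TPM, but 80.7% of its exon length is shared with Gm20427, so that its level is uncertain. The copper importer Slc31a1 stood at 18.5 ± 3.88 TPM. For iron, the exporter Slc40a1 stood at 4.58 ± 0.874 TPM and the importer Slc11a2 at 4.45 ± 0.387 TPM. Slc39a8 was the lowest at 0.447 ± 0.149 TPM.

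Ion and pH transporters had a median of 5.78 TPM, and 29 of 55 listed were members. The phosphate importer Slc20a1 led at 30.1, 36, 65.6 and 47.2 TPM, with library 3 highest and library 1 lowest. Its relative Slc20a2 stood at 25.9, 38, 45.3 and 30.1 TPM, and the ratio of Slc20a1 to Slc20a2 was above 1 in 3 of 4 libraries. The bicarbonate importer Slc4a7 stood at 15.6 ± 2.7 TPM. Slc12a2, the importer of sodium, potassium and chloride, stood at 6 ± 1.62 TPM.

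Slc4a1, the anion exchanger of red cells, was a member by its mean alone. It stood at 2.13, 0.5, 0.173 and 4.1 TPM, so that libraries 1 and 4 were far above libraries 2 and 3. The erythroid markers summed to 106, 102, 98.5 and 271 TPM, likewise with library 4 highest and library 3 lowest. Libraries 1 and 2 were close in this sum, unlike in Slc4a1. Of the 8 markers, 4 exceeded 1 TPM in every library. Red cells had been lysed before the sort. The part of red cells or their precursors in the level of Slc4a1 was not tested. In bulk RNA, fewer cells of a type and less RNA per cell cannot be told apart.

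Carriers of nucleosides, vitamins and choline had a median of 5.84 TPM, and 20 of 51 listed were members. Slc44a2, a choline transporter-like protein, led at 71.3, 86.2, 100 and 75.5 TPM. It exceeded its relative Slc44a1, a choline carrier at 6.14 ± 1.15 TPM, by a TPM ratio of 14.2 ± 4.71. The nucleoside carriers Slc28a2 and Slc29a1 stood at 29.3 ± 3.3 and 25.1 ± 4.6 TPM. Slc28a2b, also a member and alike in name, may be a near copy, so that reads of one could be counted to the other. Slc19a1, the reduced folate carrier that also takes up methotrexate, stood at 12.3 ± 2.42 TPM. Sugar, carboxylate and fatty acid carriers had the lowest median, 4.37 TPM, with 15 of 59 listed as members. They were led by Slc16a6 (28.2 ± 5.76 TPM, 23.5% of its exon length shared with other genes) and Slc2a6 (19.5 ± 5.52 TPM), and Slc16a7, a monocarboxylate carrier, was lowest at 0.267 ± 0.0827 TPM. The 4 carriers left out by name belong to the same role. Of them, the glucose carrier Slc2a1 stood at 30.8, 39.2, 87.2 and 59.8 TPM and the lactate carrier Slc16a1 at 18.6, 18.2, 38.1 and 28.7 TPM.

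Some 5 members fell outside these roles. They were Slc43a3 (27.2 ± 7.02 TPM), a carrier of purine bases, Slc15a2 (11.9 ± 6.8 TPM), a carrier of short peptides, Slc14a1 (8.26 ± 3.14 TPM), a urea carrier, Slc38a6, and the serotonin carrier gene Slc6a4 (0.711 ± 0.398 TPM). A further 3 genes bear a carrier's name but are no transporters. Slc9a3r1 encodes a scaffold that binds membrane proteins and stood at 68.8 ± 10.3 TPM, Slc7a6os lies beside Slc7a6 on the opposite strand and stood at 35.9 ± 10.8 TPM, and Slc4a1ap stood at 11.9 ± 0.786 TPM.

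Levels between libraries were compared as CPM scaled with the trimmed mean of M values (TMM), because TPM alone shifted whole libraries. Relative to the TMM scale, the median gene lay 0.18 log2 higher in library 3 and 0.18 lower (-0.18) in library 2 by TPM. On the TMM scale the members' highest libraries were spread much like those of all expressed genes. Library 1 was the highest for 65 of 197 members (33%), against 29% of 12468 expressed genes. Library 3 was the highest for 53 members (26.9%), against 27.2% of expressed genes, and library 2 for 45 members (22.8%), against 25%. Library 4 was the highest for 34 members (17.3%), against 18.7%.

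The roles differed in this respect. Of 18 amino acid transporters, 10 (55.6%) were highest in library 3, and of 38 mitochondrial carriers 16 (42.1%), against the same 27.2% of expressed genes. Of 26 metal transporters, 13 (50%) were highest in library 1 and 2 in library 3, and of 15 lysosomal and endosomal transporters 7 (46.7%) were highest in library 1 and 1 in library 3, against 29% of expressed genes in library 1. The summed T cell (353, 175, 122 and 278 CPM), macrophage (288, 222, 185 and 236 CPM) and platelet markers (41.8, 14, 7.95 and 14.7 CPM) were highest in library 1 as well, and their part in these counts was not tested. Genes of a role are not independent, and no test was made of these counts. By TPM, where library 3 is raised throughout, 92 of 197 members (46.7%) and 25 of 38 mitochondrial carriers (65.8%) were highest in library 3, against 51.6% of expressed genes.

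**Figure D3:**
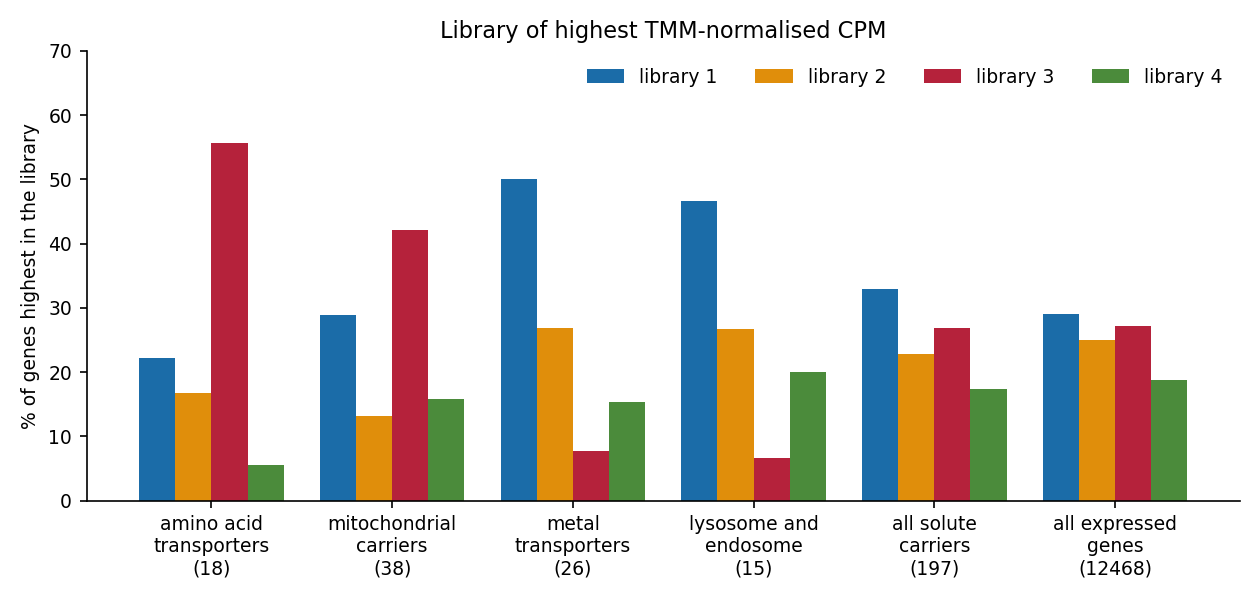
Percentage of genes whose TMM-normalised CPM was highest in library 1, 2, 3 or 4 (y axis, bars from 0), for 4 transporter roles, all 197 solute carriers and 12468 expressed genes, with the number of genes in parentheses. Amino acid transporters peak in library 3 at 55.6% and metal transporters in library 1 at 50%, while all solute carriers follow all expressed genes closely.

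The 4 amino acid transporters of highest mean TPM were all highest in library 3. On the TMM scale Slc1a5 stood at 319, 504, 831 and 363 CPM in libraries 1 to 4, Slc7a5 at 109, 124, 195 and 167 CPM, Slc3a2 at 151, 207, 249 and 235 CPM and Slc38a2 at 293, 398, 502 and 388 CPM. Each of these 4 genes was lowest in library 1. Slc7a1 differed little, at 144, 145, 158 and 139 CPM. Slc38a1 was highest in library 3 but lowest in library 2, at 193, 181, 238 and 213 CPM. Slc38a10, next after the first 4 by mean TPM, was highest in library 2 and lowest in library 3, at 122, 131, 113 and 125 CPM. Slc7a7 was also highest in library 2, and Slc43a1 and Slc43a2 in library 1. On the TMM scale, the 8 germinal centre markers summed to 2264, 1608, 2356 and 1797 CPM and the 6 plasma cell markers to 2418, 2573, 1151 and 2243 CPM. Library 3 thus had the lowest plasma cell sum and the highest germinal centre sum, and the part of cell composition in the transporter levels was not tested.

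**Figure D4:**
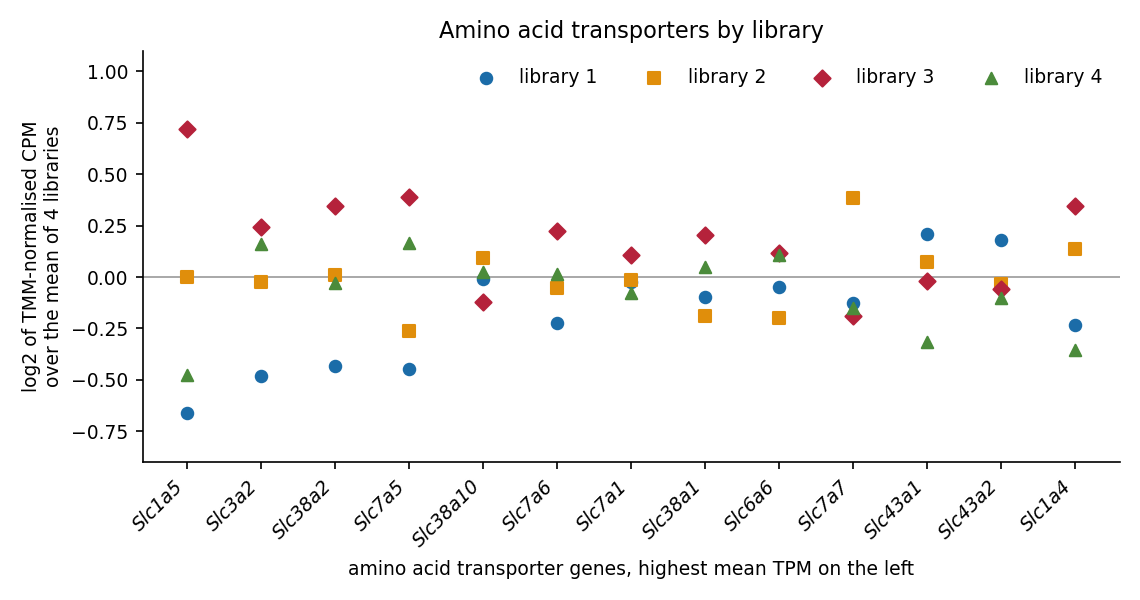
TMM-normalised CPM of the 13 amino acid transporters above 4 TPM in each library, as log2 over the mean of the 4 libraries (y axis), with genes ordered by mean TPM (x axis). Library 3 is the top point for Slc1a5, Slc3a2, Slc38a2 and Slc7a5 and library 1 the bottom point, while Slc38a10, Slc7a7, Slc43a1 and Slc43a2 have another library on top.

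To ask whether single carriers varied between libraries more than genes of their level, the quasi-dispersion of each gene was set against its trend in edgeR and the p-value adjusted over all genes tested. Of 197 members 184 entered the test, and the other 13 had too few counts in some library. None passed at an adjusted p under 0.05 (edgeR quasi-likelihood, Benjamini-Hochberg), against 0.00835% of 11982 genes, or 1 gene. At an unadjusted p under 0.05 stood 3 members, or 1.63%, against 4.97% of all genes tested. The limma-voom form of the test passed 0 members after adjustment and 3 before it, against 0 and 5.03% of all genes. DESeq2 marked 2 members, Slc15a2 and Slc1a5, as dispersion outliers, against 1.33% of all genes.

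The 3 members under the unadjusted threshold were Slc15a2, Slc1a5 and Slc25a24. Slc15a2 stood at 73.7, 35, 28.5 and 21.1 CPM on the TMM scale, a 3.49-fold range with library 1 far above the rest (edgeR quasi-likelihood, adjusted p = 0.473). Without library 1 it was no longer under the unadjusted threshold. Slc1a5 had a 2.6-fold range (edgeR quasi-likelihood, adjusted p = 0.61), and without library 3 it too was no longer under that threshold. Slc25a24, a calcium-regulated carrier of ATP and phosphate, stood at 6.39, 2.08, 1.07 and 2.6 CPM, from 90, 27, 16 and 38 counts (edgeR quasi-likelihood, adjusted p = 0.874), and without library 1 it left the threshold as well. For each of these 3 genes the library left out was its highest, so that a smaller spread without it followed from that choice. Library 1, where Slc15a2 and Slc25a24 were highest, also had the highest of the T cell, macrophage and platelet sums given above. Their part in these levels was not tested.

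Next in order of p came Slc7a5, Slc20a1, Slc25a25, Slc46a3, Slc12a3, Slc41a2 and Slc35f2, with unadjusted p from 0.052 to 0.0793 (edgeR quasi-likelihood, adjusted p = 0.99 for each). Slc25a25, a relative of Slc25a24, stood at 34.8, 34.3, 61.3 and 52 CPM, so that libraries 3 and 4 lay above libraries 1 and 2. Slc20a1 showed a like order, at 76.8, 101, 144 and 114 CPM. Slc46a3, of the lysosome, ran the other way, at 22.6, 22, 10.5 and 13.2 CPM.

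**Figure D5:**
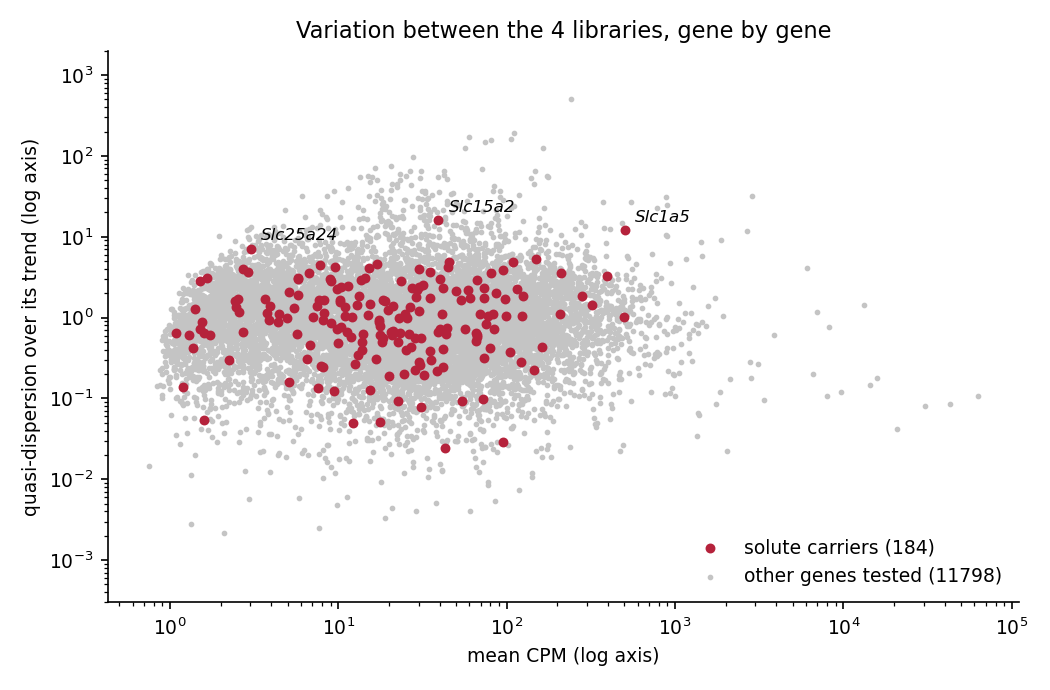
Quasi-dispersion of each gene over the trend for its level (y axis, logarithmic) against mean CPM (x axis, logarithmic), for 184 solute carriers and the other genes among 11982 tested. The solute carriers lie within the cloud of other genes, with Slc15a2, Slc1a5 and Slc25a24 the highest of them in order of p.

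Transport genes without an Slc symbol were taken from 2 lists by textbook role. In the mitochondrial list, 15 of 16 genes reached a mean of 1 CPM, with a median of 9.51 TPM over all 16, and in the list of other transport genes and partners 24 of 25, with a median of 9.5 TPM. No gene of either list passed the edgeR test, with or without adjustment, among 15 and 24 tested. Ucp2, the uncoupling protein of the same family as the Slc25 carriers, stood at 373 ± 78.9 TPM, above every Slc25 member. Unc93b1, the chaperone of endosomal Toll-like receptors, stood at 461 ± 51.9 TPM, and Bsg, the partner of lactate carriers, at 144 ± 12.5 TPM. The mitochondrial pyruvate carrier genes Mpc1 and Mpc2 stood at 3.58 ± 1.34 and 5.88 ± 0.22 TPM.

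Promoters were searched for the E-box CACGTG, the motif that MYC and the lysosomal regulator TFEB are known to bind. The motif is its own reverse complement, so that 1 search covers both strands. Promoter windows were the 250 bases before each RefSeq start (GRCm38.p6). Windows were found for 152 members, and 24 of these (15.8%) held the motif, against 9.95% of 8785 other expressed protein-coding genes and 6.86% of all 27025 genes with a window. By role the share was 4 of 11 for lysosomal and endosomal transporters, 4 of 19 for ion and pH transporters, 6 of 30 for mitochondrial carriers, 4 of 25 for secretory pathway transporters and 3 of 21 for metal transporters. It was 1 of 9 for sugar, carboxylate and fatty acid carriers, 1 of 13 for amino acid transporters and 1 of 18 for nucleoside, vitamin and choline carriers. Of the 24 members with the motif, 9 (37.5%) were highest in library 3 on the TMM scale, and of the 128 without it 32 (25%). The same held for 27.2% of 12468 expressed genes. All 6 mitochondrial carriers with the motif were among the 9, and 42.1% of that role as a whole was highest in library 3. The rest of the 9 were Slc20a1, Slc29a1 and Slc30a5. Motif and role therefore cannot be told apart in this comparison. A match is a run of letters and not a measured binding site, and these shares were not tested.

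Shown are 3 promoters of carriers that were highest in library 3, and 2 of the lysosomal group, with the motif in capitals and the rest in lower case, 5′ to 3′ along the gene. Slc20a1 (chr2:129198523-129198772, plus strand) is the phosphate importer with 2 copies of the motif. Slc25a1 (chr16:17928220-17928469, minus strand) is the citrate carrier. Slc25a33 (chr4:149774268-149774517, minus strand) is a pyrimidine nucleotide carrier of mitochondria. Slc36a1 (chr11:55204090-55204339, plus strand) and Slc38a7 (chr8:95853492-95853741, minus strand) are lysosomal amino acid carriers.
Slc20a1: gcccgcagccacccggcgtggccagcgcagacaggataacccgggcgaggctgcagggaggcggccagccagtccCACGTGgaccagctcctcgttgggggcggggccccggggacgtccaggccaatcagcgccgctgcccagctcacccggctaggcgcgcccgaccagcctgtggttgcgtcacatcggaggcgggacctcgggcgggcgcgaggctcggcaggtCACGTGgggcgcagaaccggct
Slc25a1: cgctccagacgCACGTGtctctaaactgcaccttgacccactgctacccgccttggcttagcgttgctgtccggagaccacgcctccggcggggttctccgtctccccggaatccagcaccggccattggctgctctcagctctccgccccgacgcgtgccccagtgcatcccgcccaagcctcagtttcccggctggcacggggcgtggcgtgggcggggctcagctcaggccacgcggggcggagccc
Slc25a33: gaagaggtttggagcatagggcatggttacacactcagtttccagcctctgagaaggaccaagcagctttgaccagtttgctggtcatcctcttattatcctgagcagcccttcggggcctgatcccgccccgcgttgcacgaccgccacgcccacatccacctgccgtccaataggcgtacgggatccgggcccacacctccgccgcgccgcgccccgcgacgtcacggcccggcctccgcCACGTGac
Slc36a1: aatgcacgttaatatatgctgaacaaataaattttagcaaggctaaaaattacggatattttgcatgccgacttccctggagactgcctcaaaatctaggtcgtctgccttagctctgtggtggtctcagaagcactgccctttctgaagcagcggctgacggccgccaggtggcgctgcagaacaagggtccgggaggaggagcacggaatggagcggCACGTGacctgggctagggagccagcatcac
Slc38a7: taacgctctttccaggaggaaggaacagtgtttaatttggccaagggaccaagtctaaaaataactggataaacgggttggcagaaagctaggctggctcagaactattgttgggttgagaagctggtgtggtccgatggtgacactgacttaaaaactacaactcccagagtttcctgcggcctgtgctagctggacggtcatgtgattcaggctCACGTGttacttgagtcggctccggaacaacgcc
On the TMM scale Slc25a1 stood at 36.8, 36.7, 49.3 and 43 CPM and Slc25a33 at 5.46, 7.64, 10.1 and 6.72 CPM. Slc25a33 shares 14.9% and Slc20a1 13.1% of its exon length with other genes. The lysosomal Slc36a1 stood at 16.1, 13.3, 11.8 and 14.1 CPM, with library 1 highest, and Slc38a7 at 12.7, 20.6, 10 and 11.7 CPM, with library 2 highest. The genes shown were picked with these orders known.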

How the data were processed

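RNA of 4 libraries of sorted B220+ YFP+ splenic cells was sequenced after poly(A) selection on DNBseq, single-end at 50 nt, at a planned 20 M reads each, per the labels. The submitters' processing notes name the build mm10, the aligner STAR 2.5.2b, the counter featureCounts 1.6.0 and FastQC. The annotation release, strand setting and treatment of reads with several matches are not given in the sources used here, so overlapping genes on either strand cannot be told apart. The deposited values are raw read counts per gene, not normalised, with totals of 13777954 to 14629025, where 3 counts equal 0.205 to 0.218 CPM. Every library pair differed by more than sampling noise (median chi-square per gene, 1 degree of freedom, 2.79 to 6.05), and each library counted as 1 sample.

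CPM used library totals. Promoters on chromosome 18 were not used. TPM used exon unions of GENCODE M21 (GRCm38), which matched 37536 of 37646 identifiers and all 197 members. Shared exon length was counted against any other listed gene. Variation came from an intercept-only glmQLFit of edgeR 4.0.16 (R 4.3.3) after filterByExpr and TMM scaling, with limma 3.58.1 and DESeq2 1.42.0 as alternatives. On simulated counts of 11982 genes with 200 changed in 1 library each, 68.5% were recovered at 4-fold and 98.5% at 16-fold. Of the unchanged genes, 2.33% in the 4-fold run and 1% in the 16-fold run were under the unadjusted threshold. In the measured libraries 4.97% of genes tested were under it. Recovery at the spread of the measured libraries was not tested. Alternatives were another normalisation, other filters, other tools, CPM without length, other library totals and each library left out.

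Members, roles and lists were chosen with earlier results of these data known, and the role of genes that are no transporters was added after values were seen, as were the ratios between genes, the motif search and the counts of highest libraries. Genes were named by a rule: the 20 highest members, the 3 highest and the lowest of each role, the 10 of smallest p, those nearest the limit of 1 CPM, those with 1 library apart, and a set of known carriers. Slc43a1, Slc43a2, Slc6a6, Slc7a8, Slc38a6, Slc25a33 and Slc38a7 were picked after their values were seen, and the partner genes named are examples from their lists. Some genes that the rule names are not reported here. Python 3.11.15 did the rest.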

Additional observations from a re-analysis of the deposited data

Results flagged for a closer look

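Of 197 members, 9 (4.57%) had 1 library that stood apart from the other 3 on the TMM scale, with a gap over range, given in parentheses, above Dixon's critical value for 4 samples. The same held for 5.31% of 12468 expressed genes, so the members' share is near the background. Chance sets about 1 in 20 groups apart in this way. Library 1 stood apart for 4 of them. Slc37a3 was at 11.1, 15.3, 15 and 14.9 CPM (0.902) and Slc27a1, a fatty acid carrier, at 8.73, 12.3, 11.9 and 12.3 CPM (0.875), both lowest in library 1. Slc30a7, which loads zinc into the Golgi, was at 34.4, 29.7, 29.4 and 30.1 CPM (0.859) and Slc25a46, a protein of the outer mitochondrial membrane, at 51.1, 41.9, 40.6 and 42.4 CPM (0.832), both highest in library 1. Library 4 stood apart for Slc25a35 at 1.49, 1.47, 1.54 and 2.4 CPM (0.925), for the nucleoside carrier Slc28a3 at 1.14, 1.08, 1.14 and 1.44 CPM (0.847), and for the dicarboxylate carrier Slc25a10 at 43.6, 43.4, 42.7 and 37.8 CPM (0.833). Library 2 was highest for Slc7a7 at 19.4, 27.7, 18.6 and 19.1 CPM (0.91). Library 3 was highest for Slc25a26, the carrier of S-adenosylmethionine, at 3.33, 3.24, 5.41 and 3.56 CPM (0.851). Slc25a35 rested on 19 to 35 counts and Slc28a3 on 14 to 21 counts in a library.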

How the results depend on the processing

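No paired analysis was possible because the 4 libraries form 1 group. With no filter on low counts, 3 members passed the edgeR test at an adjusted p under 0.05 (Slc4a1, Slc1a5 and Slc15a2) and 18 (9.14%) at the unadjusted one, against 0.844% and 4.73% of 31026 genes. DESeq2 marked 2 members as dispersion outliers (1.33% of genes). Robust edgeR gave 0 adjusted and 6 unadjusted members (3.26%), against 0.526% and 6.28% of genes. With a library left out the count was 0 adjusted and 3 to 5 unadjusted, against 4.56 to 4.95% of genes unadjusted. The cause was not tested. The log2 difference of the members' median from that of expressed protein-coding genes was -0.93 by TPM, -0.66 by CPM without length, -0.85 on log2(TPM + 1), -0.83 with stricter limits on members and background, and -1.01 to -0.89 with a library left out. By CPM the difference was 0.08 for mitochondrial carriers, against -0.33 by TPM, so that its sign depended on the length correction. By CPM it was also 0.90 for amino acid, -0.30 for lysosomal, -0.64 for secretory, -0.70 for metal, -0.67 for ion and -1.55 for nucleoside and choline carriers. With the stricter limits it was 0.81 for amino acid, -0.82 for lysosomal, -1.15 for secretory, -1.21 for metal and -0.70 for ion carriers, and on log2(TPM + 1) it was -1.01 for metal carriers. The count highest in library 3, an alternative chosen after seeing the data, was 92 members (46.7%) and 25 mitochondrial carriers (65.8%) by TPM, against 51.6% of expressed genes. CPM moved the level of 61 of 88 named genes by more than 1 SD, and leaving out a library moved none of them that far.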

Other observations

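Beyond the members, 161 Slc genes lay below 1 CPM, and 27 of them had 0 counts in all 4 libraries, where 3 counts would equal 0.205 to 0.218 CPM. Among the low ones were Slc7a11, the cystine carrier gene, at 0.419 CPM and Slc46a1, the proton-coupled folate carrier gene, at 0.527 CPM. The sugar, carboxylate and fatty acid carriers were lowest in library 3 on the TMM scale for 7 of 15 members (46.7%), against 27.1% of expressed genes. Of the 7, Slc16a5, Slc16a13, Slc2a9, Slc45a3 and Slc5a3 rested on 7 to 74 counts in a library. Slc16a6, which led the role, stood at 47.4, 67.8, 67.9 and 61.1 CPM on the TMM scale, so that libraries 2 and 3 were level at the top. By CPM on library totals, Slc2a1 (49.4, 65.2, 123 and 92.8) and Slc16a1 (37.6, 38.2, 68 and 56.3), left out by name, were highest in library 3. Slc2a3 was lowest in library 3 and Slc16a3 highest in library 4. The iron importer receptor gene Tfrc stood at 23.4, 21.9, 45.9 and 37.5 TPM, with libraries 3 and 4 above libraries 1 and 2. The member genes had a median coefficient of variation of 18.9% on the TMM scale, against 14.9% for expressed protein-coding genes. The coefficient was not adjusted for level, and the members' median level was lower (7.24 against 13.8 TPM). In the edgeR test, which sets each gene against the trend for its level, 1.63% of members tested were under the unadjusted threshold, against 4.97% of all genes tested.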
